A study of Rattus norvegicus with 12 samples.

Results

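Ly6al, Siglec5, Rgs1, RGD1562667, RGD1559482, Htra4 and Thbd are 7 of the 32883 genes counted in this rat liver atlas, and they were picked because their UMI (unique molecular identifier) counts were higher in Kupffer cells of Dark Agouti (DA) rats than in those of Lewis (LEW) rats. The choice rested on named genes with no numeric threshold, so there are no genes just inside or just outside it, and the strain difference in Kupffer cells is given as a description without a test. What is described in depth is the level of each gene in every rat, whether LEW Kupffer cells held any of it, in which other liver cells it was found, how far 3 ways of sampling the liver gave the same order of the strains, and where the genes lay on sections from a further strain.

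The study profiled livers of healthy male DA and LEW rats to compare their resident cells. Total liver homogenate (TLH), the cells released from a whole liver by 2-step collagenase digestion, was sequenced from 2 DA and 2 LEW rats. An immune-enriched preparation, which added washes and red blood cell depletion, came from 1 rat of each strain, nuclei came from liver tissue of a further 2 rats of each strain, and 2 cryosections of Wistar liver were measured on spatial (Visium) arrays. The design text of the deposit gives 8 to 10 weeks as the age of the rats whose livers were digested, whereas file names read 10 weeks for the DA and 13 weeks for the LEW rats of the TLH libraries and 9 weeks for the immune-enriched pair, while the paper describes DA and LEW rats as age matched and older than either. Whether age differed between the strains cannot be settled from these sources, and the labels of the nuclei and sections give no age. The paper describes the rats as separate animals, and p-values measure the spread between these samples only.

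Kupffer cells are the resident macrophages of the liver sinusoids. They take up particles, microbes and aging red cells from portal blood through scavenger and complement receptors, and surface lectins and paired immunoglobulin receptors tune how strongly they respond. Some of the 7 genes code for such surface proteins. Siglec5 is a sialic acid-binding lectin of myeloid cells, Ly6al belongs to the Ly6 family of small, often lipid-anchored surface proteins, and Thbd is thrombomodulin, the thrombin receptor that turns thrombin towards activation of protein C and is best known from endothelium. RGD1559482 is listed by RefSeq as an Igsf7-like gene and lies beside Igsf7 among the Cd300 genes, which code for activating and inhibitory immunoglobulin receptors of myeloid cells. Rgs1 codes for a GTPase-activating protein that shortens signals from G protein-coupled receptors, including chemokine receptors, and Htra4 for a secreted serine protease. RGD1562667 is known here by its identifier alone and is given no role. Ly6al and RGD1559482 have close relatives in their gene clusters, and reads could have been split between such copies by the counting, so their levels are uncertain to that extent.

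Promoters of 2 of the 7 genes, Siglec5 and Rgs1, were held in the RefSeq table (assembly GRCr8), and they are shown as the promoters at hand. Each sequence is the 250 bases before the annotated start site, 5′ to 3′ in the sense of the gene, at chr1:102904656-102904905 on the plus strand for Siglec5 and chr13:58573188-58573437 on the minus strand for Rgs1. Capitals mark matches, on either strand, to GAGGAA (a core bound by the macrophage factor PU.1), CACCC (bound by Krüppel-like factors) and TATAAA (the TATA box).
Siglec5: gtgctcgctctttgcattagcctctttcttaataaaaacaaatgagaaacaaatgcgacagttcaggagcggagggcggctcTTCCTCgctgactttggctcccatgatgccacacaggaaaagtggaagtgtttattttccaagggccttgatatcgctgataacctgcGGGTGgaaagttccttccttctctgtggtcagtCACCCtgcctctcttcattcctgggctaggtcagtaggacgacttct
Rgs1: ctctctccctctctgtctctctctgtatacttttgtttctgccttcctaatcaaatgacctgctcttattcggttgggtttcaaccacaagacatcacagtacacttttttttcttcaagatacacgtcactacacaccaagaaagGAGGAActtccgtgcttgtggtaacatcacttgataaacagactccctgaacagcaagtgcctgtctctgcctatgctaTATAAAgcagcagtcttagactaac
GAGGAA occurred once in each promoter, 168 bases before the start on the minus strand of Siglec5 and 104 bases before it on the plus strand of Rgs1, and 23.3% of the 33469 promoters of this length in the table held it. TATAAA lay 25 bases before the start of Rgs1 and was held by 12.9% of all promoters. CACCC lay 47 and 80 bases before the start of Siglec5, on the plus and the minus strand, and was held by 49.2% of all. TGACTCA, the site of AP-1, and CACGTG, the E-box of the MiT factors, were searched on both strands and matched neither promoter, against 4.05% and 5.59% of all. GC content was 49.2% for Siglec5 and 42.8% for Rgs1. These matches describe letters in a window and not sites in use.

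Cells were assigned to classes by their UMIs for marker genes, by limits that were set with the counts in hand. A Kupffer-gated cell held at least 10 UMIs from at least 4 of 7 markers (Clec4f, Vsig4, Cd5l, C1qa, C1qb, C1qc and Marco), or at least 5 UMIs from 3 markers for nuclei. It passed no other class's gate except that for monocytes, which yielded to the Kupffer gate. Cells that passed both of these gates thus stayed Kupffer-gated. None of the 7 described genes was a gate marker. This left 424 and 539 cells of DA-1 and DA-2 and 304 and 331 of LEW-1 and LEW-2 in TLH, 76 DA and 111 LEW cells in the immune-enriched libraries, and 45 and 75 DA and 58 and 63 LEW nuclei. By these rules 44 to 204 cells per TLH library still passed several gates and 810 to 1711 passed none, and both were left out. Counts are tags of the 3′ end and were not divided by gene length, so levels are compared between rats and classes and not between genes.

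Marker and depth values moved with strain beside everything that follows. All 7 gate markers were above 0 in every library, and their summed level in Kupffer-gated TLH cells was 15050 and 17005 UMIs per 1e6 counted UMIs of the class (CPM) in the DA rats against 25036 and 26423 CPM in the LEW rats, lower in both DA rats. In the immune-enriched pair it was 41436 against 56812 CPM, and in nuclei the order turned, with 7172 and 6790 CPM in DA against 4615 and 5838 CPM in LEW. Hepatocyte genes, which serve as a sign of free or adhering hepatocyte RNA, summed to between 46710 and 67568 CPM in Kupffer-gated TLH cells, to 2253 CPM in the immune-enriched DA library and to 21285 CPM in the LEW one. Monocyte genes summed to between 2960 and 4296 CPM in TLH, to 10765 CPM in the immune-enriched DA library against 5473 CPM in the LEW one, and to 1790 and 1401 CPM in DA nuclei against 441 and 906 CPM in LEW nuclei. In TLH the highest hepatocyte sum and the lowest monocyte sum were those of DA-2, and the opposite ends were those of LEW rats. The part of these RNAs in the values of the 7 genes was not tested. Median UMIs per Kupffer-gated cell were 2067.5 and 2930 in the DA and 3559.5 and 3101 in the LEW TLH libraries, with the lower value in DA under a UMI limit of 1500 for DA-1 and 2000 for DA-2 and the LEW rats. Whole libraries held 61441846 to 92484173 UMIs for TLH and 8039397 to 15186970 for nuclei, and kept barcodes could be compared for nuclei, where pairs of libraries shared between 1 and 6.

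Among the surface proteins, Ly6al came nearest to presence in one strain and absence in the other. Its level in Kupffer-gated TLH cells was 246 and 268 CPM in DA-1 and DA-2 and 0 and 0.939 CPM in LEW-1 and LEW-2. Both DA rats thus stood far above both LEW rats, with 673 UMIs summed over the DA rats and 1 over the LEW rats, a ratio of levels of 564 with an exact 95% counting interval of 101 to 22329. The fitted log2 difference ran from 7.96 to 11.3 when single rats were left out. The immune-enriched DA cells held 507 CPM, from 316 UMIs, and the LEW cells none. Against a floor of 3 counts over the LEW group, with the DA count taken as exact, DA was 226-fold higher. Nuclei held 168 and 65.0 CPM in DA and none in either LEW rat, 13.5-fold higher in DA against the same floor. Across all 5 LEW libraries a single UMI of Ly6al was found in Kupffer-gated cells.

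Siglec5 was lower in LEW but present there. TLH levels were 51.4 and 65.8 CPM in DA and 7.25 and 7.51 CPM in LEW, with each pair of rats close together and a log2 difference of 3.04 ± 0.30 (SE, n = 2 against 2). The immune-enriched DA cells held 161 CPM and the LEW cells 18.7 CPM, a ratio of 8.59 (exact 95% counting interval 5.50 to 13.9). Nuclei gave 221 and 272 CPM in DA against 17.3 and 90.6 CPM in LEW, a log2 difference of 2.24 ± 0.57, with LEW-2 well above LEW-1 but below both DA rats. It became 1.39 without LEW-1 and 3.68 without LEW-2.

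RGD1559482, the Igsf7-like gene, was found in Kupffer-gated cells of both strains, which differed in amount. Levels in TLH were 323 and 381 CPM in DA against 129 and 173 CPM in LEW, a log2 difference of 1.26 ± 0.19. In the immune-enriched pair they were 1148 against 268 CPM, a ratio of 4.28 (3.76 to 4.87), and in nuclei 211 and 272 against 30.3 and 54.4 CPM, a log2 difference of 2.51 ± 0.45. The groups did not overlap in any of the 3 preparations, and the TLH difference was the smallest of the 3.

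Thbd, thrombomodulin, differed widely between the DA rats. TLH levels were 86.4 CPM in DA-1 and 233 CPM in DA-2, against 64.3 and 63.9 CPM in the LEW rats. DA-1 thus stood only a little above the LEW rats, and the log2 difference of 1.40 ± 0.56 became 0.46 without DA-2. The immune-enriched levels were 318 and 213 CPM, a ratio of 1.49 (1.24 to 1.80), and nuclei held 1527 and 360 CPM in DA against 38.9 and 193 CPM in LEW, a log2 difference of 3.01 ± 0.76 that ran from 1.65 without DA-1 to 4.43 without LEW-2.

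Rgs1, the regulator of G protein signalling, was likewise uneven between DA rats. TLH levels were 12.0 CPM in DA-1 and 131 CPM in DA-2, and 0.906 and 0 CPM in the LEW rats, from 230 UMIs against 1 and a ratio of 193 (34.3 to 7653). DA-2 gave 219 of the 230 UMIs, so the ratio rests on that rat and the interval leaves out the spread between rats, and without DA-2 the gene was too low for the fit. In the immune-enriched pair the levels were 48.2 and 14.2 CPM, a ratio of 3.39 (1.85 to 6.38), much nearer to each other than in TLH. Nuclei held 432 and 106 CPM in DA and 0 and 12.1 CPM in LEW, a ratio of 44.3 (11.7 to 374), and the fitted log2 difference ran from 4.15 without DA-1 to 8.33 without LEW-2. Rgs1 and Thbd were both higher in DA-2 than in DA-1 in TLH and both higher in DA-1 than in DA-2 in nuclei. The sum of early-response genes, which cells induce within minutes of a stimulus, had the same order, at 1802 and 2466 CPM in Kupffer-gated cells of DA-1 and DA-2 in TLH and 11437 and 8137 CPM in nuclei. Single genes were divided, with 10 of the 15 that passed the filter higher in DA-2 in TLH and 10 of 14 higher in DA-1 in nuclei, and Dusp1, a MAP kinase phosphatase, made much of the TLH difference at 361 and 720 CPM. Their part in the 2 genes was not tested.

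Htra4, the secreted protease, was low throughout, and RGD1562667 was absent or nearly absent from LEW Kupffer-gated cells. Htra4 stood at 29.5 and 19.7 CPM in DA against 0.906 and 1.88 CPM in LEW in TLH, from 60 UMIs against 3 and a ratio of 16.8 (5.47 to 83.6). In the immune-enriched pair it was 94.7 against 5.23 CPM, a ratio of 18.1 (8.26 to 47.0), close to that in TLH, and in nuclei 21.1 and 29.5 against 0 and 6.04 CPM, a ratio of 10.5 (1.35 to 474). RGD1562667 was at 44.9 and 44.3 CPM in the DA TLH rats, nearly equal to each other, against 0.906 and 0 CPM in the LEW rats, from 115 UMIs against 1 and a ratio of 96.5 (17 to 3843). Its fitted log2 difference ran from 5.54 to 8.77 when single rats were left out. The immune-enriched level was 188 CPM in DA, from 117 UMIs, and 0 in LEW, 83.8-fold higher in DA against a floor of 3 LEW counts. In nuclei it was 21.1 and 35.5 CPM, from 8 UMIs, against 0 in both LEW rats, 4.00-fold higher against that floor.

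**Figure D1:**
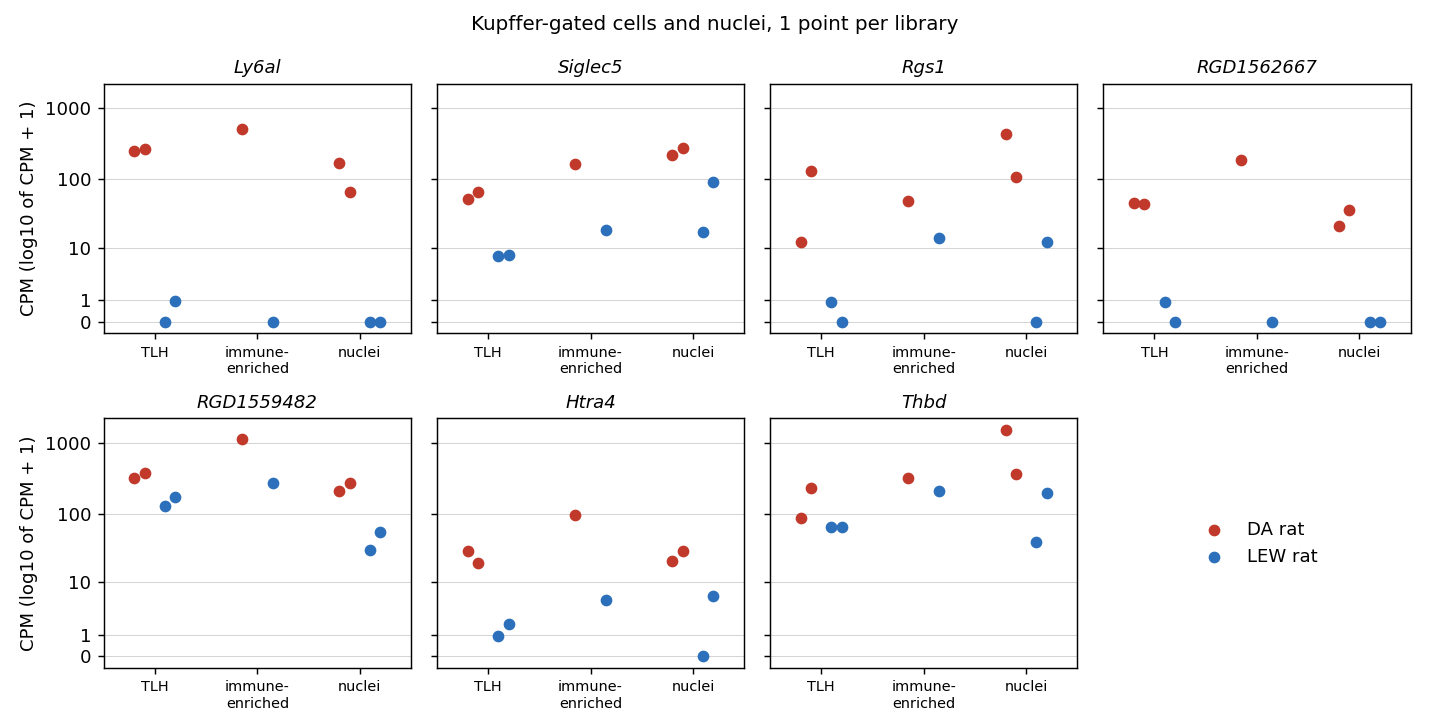
Levels of the 7 genes in Kupffer-gated cells or nuclei of each library, in CPM on a log10(CPM + 1) axis, with DA libraries in red, LEW libraries in blue, a panel for each gene and no error bars. Points of DA libraries lie above those of LEW libraries of the same preparation in every panel, and the DA points of Rgs1 and Thbd are spread the widest, from 12.0 to 131 CPM and from 86.4 to 233 CPM in TLH.

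All 7 genes had every DA rat above every LEW rat in each preparation, which is what they were chosen for and nothing is read from it. Of all genes tested, 22.9% had both DA rats above both LEW rats in TLH, 23.9% in nuclei, and 46% of genes with at least 10 UMIs had the DA rat above the LEW rat in the immune-enriched pair. All 7 genes passed the filter on low counts in TLH, and 5 passed it in nuclei, where RGD1562667 and Htra4 were too low. What differed between preparations was the size. RGD1559482 and Siglec5 kept the same order of magnitude of difference in all 3. The ratio for Thbd ran from 1.49 in the immune-enriched pair to 7.54 in nuclei, and that for Rgs1 from 3.39 in the immune-enriched pair to 193 in TLH. Htra4 had 7 UMIs in DA against 1 in LEW nuclei, too few to place the size of its difference there.

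LEW Kupffer cells held detectable RNA for every gene in at least 1 library, but for several of them it was a few UMIs, and for Ly6al and RGD1562667 it was 1 UMI each. The share of Kupffer-gated TLH cells with at least 1 UMI of Ly6al was 28.5% and 36.2% in DA and 0% and 0.302% in LEW, where 0 of 304 cells in LEW-1 allows a share of cells with a UMI of up to 0.987% (3 counts of the total). As a background, hepatocyte-gated cells, which should lack a macrophage gene, held Ly6al in 1.12% and 1.34% of DA cells at median depths of 1787 and 2514 UMIs, and in no LEW cell. Their gate allowed at most 2 Kupffer marker UMIs, so it kept this background low. The DA Kupffer shares were far above this low background, and the LEW share rested on 1 cell of 331. In the immune-enriched LEW library 0 of 111 cells held Ly6al, which allows up to 2.70%, against 36.8% of DA cells. The 0 of 58 and 0 of 63 LEW nuclei allow up to 5.17% and 4.76%, and the DA shares were 20.0% and 10.7%. For RGD1562667 the TLH shares were 8.96% and 12.4% in DA and 0.329% and 0% in LEW, and immune-enriched shares were 56.6% and 0%. These limits concern cells with a UMI and not cells that express a gene, so absence of either gene from LEW Kupffer cells was not shown.

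Siglec5, RGD1559482 and Thbd were detected in LEW above the hepatocyte background, which its gate kept low. Siglec5 was held by 10.6% and 18.2% of DA and 2.63% and 2.42% of LEW Kupffer-gated TLH cells, and by 0.0268% and 0.0908% of LEW hepatocyte-gated cells, at median depths of 2444 and 2256 UMIs. In the immune-enriched pair, where cells were read more deeply at medians of 9046 and 11688 UMIs, 56.6% of DA and 20.7% of LEW cells held it. RGD1559482 was held by 48.6% and 61.6% of DA and 30.9% and 35.3% of LEW TLH cells, and by 89.5% and 69.4% of immune-enriched cells, so most deeply read Kupffer cells of either strain carried it, whereas nuclei held it in 35.6% and 46.7% in DA and 10.3% and 12.7% in LEW. Thbd was held by 14.9% and 41.9% of DA and 20.1% and 18.4% of LEW TLH cells, and in the immune-enriched pair by fewer DA cells (48.7%) than LEW cells (63.1%) although its level was higher in DA. In nuclei the Thbd shares followed the levels, at 68.9% and 40% in DA against 8.62% and 30.2% in LEW. No order of the strains is read from the TLH and immune-enriched shares of Thbd, where DA-1 and the immune-enriched DA library went against the levels. Htra4 was held by 5.66% and 5.38% of DA and 0.329% and 0.604% of LEW cells, and Rgs1 by 2.36% and 28.8% of DA and 0.329% and 0% of LEW cells.

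The shares were then read at equal depth, where 5 of the 7 genes, all but Ly6al and RGD1562667, were still found in LEW Kupffer-gated cells. With every Kupffer-gated TLH cell thinned to 1000 UMIs, which left out no cell, Ly6al was held by 19.3% and 18% of DA cells and by no LEW cell, and the DA rats became nearly equal. Siglec5 was held by 5.42% and 7.61% against 1.32% and 0.604%, RGD1559482 by 26.9% and 31.4% against 12.5% and 13.3%, and Rgs1 by 0.943% and 11.7% against 0.329% and 0%. Thbd stood at 8.02% and 18.6% in DA against 6.91% and 6.95% in LEW, with DA-1 hardly apart from LEW, where before thinning it had been the lowest of the 4. In the immune-enriched pair its share stayed lower in DA at equal depth, at 15.8% against 19.8% in LEW. Thinned hepatocyte-gated cells of DA-1 and DA-2 held Ly6al in 0.715% and 0.390%. Endothelial-gated cells, whose gate did not set that limit on Kupffer marker UMIs, held it in 3.70% and 2.27%.

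The genes were then counted together in each cell, as a description. At least 3 of the 7 were found together in 9.43% and 36.0% of Kupffer-gated TLH cells of DA-1 and DA-2, and in 0% and 0.302% of those of LEW-1 and LEW-2. In the immune-enriched pair the shares were 68.4% in DA and 22.5% in LEW, and 3 DA cells held all 7 genes. Nuclei gave 44.4% and 25.3% in DA and 0% and 1.59% in LEW. At least 1 of the genes was found in 72.6% and 86.5% of DA and 45.4% and 46.2% of LEW TLH cells, so many LEW cells held some of these genes, mostly RGD1559482 or Thbd.

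**Figure D2:**
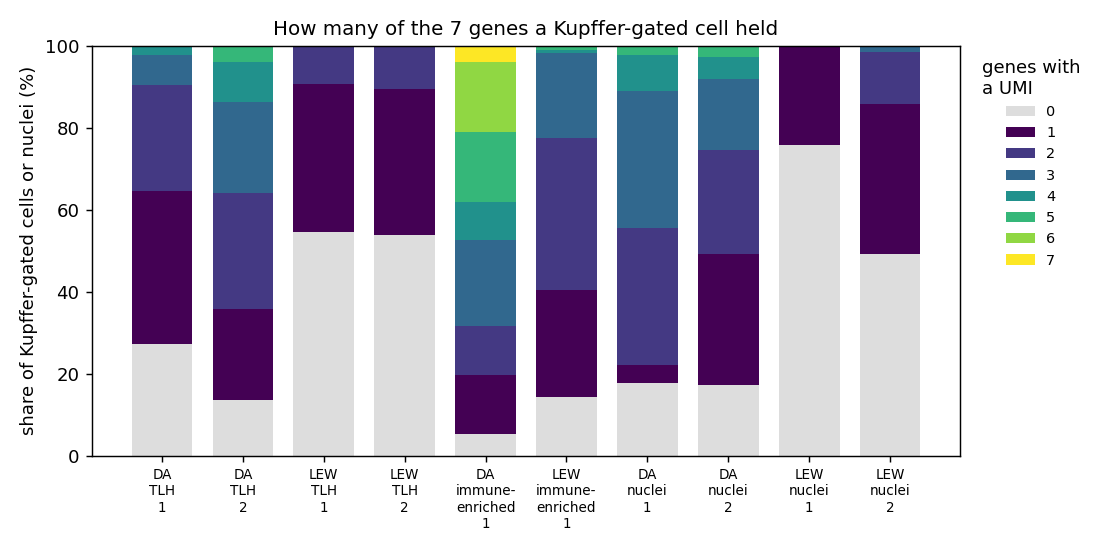
Stacked bars of the share of Kupffer-gated cells or nuclei, in percent, that held each number of the 7 genes with a UMI, with 1 bar per library. The upper segments, for many genes in a cell, are larger in DA than in LEW bars, with at least 3 genes in 9.43% and 36.0% of TLH cells against 0% and 0.302% in LEW.

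Ly6al was not found in every cell even where cells were read deeply. In the immune-enriched DA library 28 of 76 Kupffer-gated cells held it, with a median of 8 and a maximum of 54 UMIs in those cells, while 48 cells at a median total of 8235 UMIs held none. The cells with Ly6al were set beside those without it in each DA library, as a description of cells chosen by that gene. Marco, the scavenger receptor of resident macrophages, was higher in the cells with Ly6al in each library, at 1435 against 1064 CPM in DA-1, 1892 against 1258 CPM in DA-2, 4508 against 2452 CPM in the immune-enriched library and 2875 against 494 and 886 against 608 CPM in nuclei. The summed gate markers followed the same order, at 17125 against 14185 and 18872 against 15845 CPM in TLH and 46940 against 37358 CPM in the immune-enriched library. Monocyte genes were lower in the immune-enriched cells with Ly6al, 6300 against 14074 CPM, and differed little in TLH, 2945 against 3159 CPM in DA-1 and 3423 against 2673 CPM in DA-2, where the order turned. In nuclei they were 1509 against 1838 CPM in DA-1 and 682 against 1469 CPM in DA-2. Thbd and Siglec5 were higher beside Ly6al in all 5 DA libraries, for example 377 against 274 CPM for Thbd and 200 against 131 CPM for Siglec5 in the immune-enriched cells. In DA-2 of TLH Siglec5 was nearly equal, at 68.7 against 64.0 CPM. Nuclei with Ly6al numbered only 9 in DA-1 and 8 in DA-2. RGD1562667 went either way, at 70.2 against 28.1 CPM in DA-2 and 158 against 210 CPM in the immune-enriched cells, and so did RGD1559482, at 411 against 362 and 1064 against 1211 CPM. Cells with Ly6al had more UMIs in TLH and in the immune-enriched library, with medians of 2097 against 2037 in DA-1, 3225 against 2772 in DA-2 and 11171 against 8235, and nuclei with Ly6al had fewer, 1262 against 1445 in DA-1 and 1221.5 against 1308 in DA-2.

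Outside Kupffer cells the genes differed in where the rest of their RNA lay. Kupffer-gated cells, a minority of each library, held 62.8% and 64.2% of all Ly6al UMIs of DA-1 and DA-2 in TLH, and 29.6% and 48.2% of those of Thbd, with 30.6% and 50% in the LEW rats. For Rgs1 the shares were 26.8% and 57.2% in DA, the lower in the rat with the lower Kupffer level. Thbd is known from endothelium, and endothelial-gated TLH cells held it at 51.8 and 78.8 CPM in DA and 104 and 70.1 CPM in LEW. The strains overlapped there, with a log2 difference of -0.28 ± 0.27 (adjusted p = 0.66 in edgeR), and in endothelial-gated nuclei the levels of 193 and 170 against 193 and 102 CPM gave 0.32 ± 0.37 (adjusted p = 0.91). Endothelial-gated cells of the immune-enriched pair, from 1 rat each, held Thbd at 243 CPM in DA and 186 CPM in LEW. The difference between the endothelial and the Kupffer contrast was not tested. Ly6al was also found in endothelial-gated TLH cells of DA, at 27.9 and 17.7 CPM from 7 and 22 UMIs, with 0 in both LEW rats, too low for the test. Low levels of the same order were found in DA NK-gated cells, at 16.9 and 8.66 CPM, and mesenchymal-gated cells, at 16.8 and 5.88 CPM, whereas the immune-enriched DA library had 9.28 CPM in endothelial-gated cells and 0 in monocyte-gated, NK-gated and hepatocyte-gated cells.

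**Figure D3:**
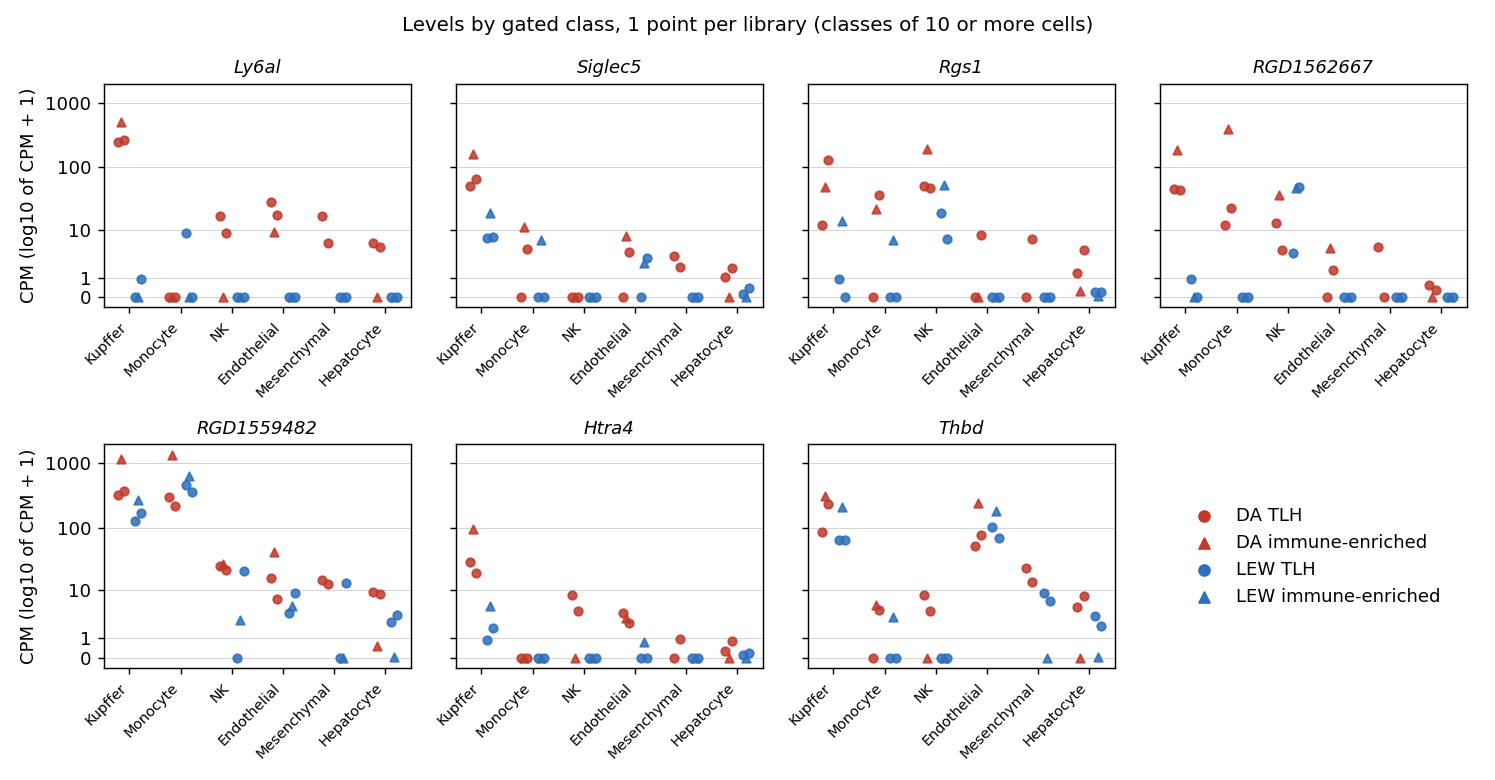
Level of each of the 7 genes by gated cell class, in CPM on a log10(CPM + 1) axis, with 1 point per TLH (circle) or immune-enriched (triangle) library, red for DA and blue for LEW. In TLH, Thbd shows endothelial levels of 51.8 to 104 CPM over both strains and RGD1559482 monocyte levels of 221 to 457 CPM, while Ly6al in LEW rests on 1 UMI in Kupffer-gated and 1 UMI in monocyte-gated cells.

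In monocyte-gated TLH cells RGD1559482 was at 299 and 221 CPM in DA and 457 and 356 CPM in LEW. Both LEW rats lay above both DA rats, as for 24.2% of all genes tested in this class and opposite to the Kupffer order, and the log2 difference of -0.64 ± 0.33 did not pass (adjusted p = 0.32 in edgeR). Immune-enriched monocytes gave 1366 CPM in DA and 630 CPM in LEW, the other way again, from 1 rat each. RGD1562667 was higher in monocytes than in Kupffer cells of the immune-enriched DA library, at 390 CPM from 143 UMIs against 188 CPM, and no UMI was found in LEW monocytes. In TLH the order turned, with 12.0 and 22.5 CPM in DA monocyte-gated against 44.9 and 44.3 CPM in Kupffer-gated cells. NK-gated cells of both strains held it, at 12.7 and 4.33 CPM in the DA TLH rats and 3.80 and 49.2 CPM in the LEW rats, from 3, 1, 1 and 7 UMIs and too low for the test, and at 37.3 against 47.9 CPM in the immune-enriched pair, from 23 and 17 UMIs. Rgs1 in NK-gated TLH cells was 50.8 and 47.6 CPM in DA against 19.0 and 7.02 CPM in LEW, without overlap. With 12 and 11 UMIs in DA against 5 and 1 in LEW, it entered the test through the strain it was chosen to be high in. It was not called in edgeR, at a log2 difference of 1.78 ± 0.65, and nothing is read from that test. The immune-enriched NK cells had the same order, with 191 CPM in DA and 53.6 CPM in LEW. These levels were above the 48.2 and 14.2 CPM of Kupffer-gated cells of the same libraries. In TLH, too, Rgs1 was higher in NK-gated than in Kupffer-gated cells of each rat but DA-2, where Kupffer-gated cells held 131 CPM.

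Of the 7 genes, 0 were called between strains in endothelial-gated, monocyte-gated or NK-gated TLH cells, against 2.53%, 5.43% and 2.23% of all genes tested in these classes. The test in NK cells was that of Rgs1 alone, which entered it through DA counts, so nothing is read from it. DESeq2 also called 0 of the 7 genes in each of these 3 classes. In endothelial-gated cells, where Thbd was the gene tested with all rats, another gene passed when either DA-1 or LEW-2 was left out. It was too low for the test with all rats, and nothing is read from it. None of the 7 passed the filter in mesenchymal-gated cells, where 0.63% of all genes were called, or in hepatocyte-gated nuclei (2.27%), and Thbd alone passed it in endothelial-gated nuclei (0.493%). In each class most of the 7 genes were too low for the test, so for them no difference could be tested.

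Hepatocyte-gated TLH cells had both calls between strains found outside Kupffer cells. There 4 of the 7 genes were tested and 2 were called, Ly6al and RGD1559482, against 4.21% of all genes. Ly6al was at 5.88 and 5.03 CPM in DA, from 93 UMIs, and at 0 in both LEW rats, so it entered the test through the strain it was chosen to be high in and its call is no support. RGD1559482 was at 9.35 and 8.73 against 2.53 and 3.63 CPM, a log2 difference of 1.57 ± 0.27 (adjusted p = 0.0196 in edgeR). Thbd gave 1.19 ± 0.35 (adjusted p = 0.107). Rgs1, with 10 and 42 UMIs in DA against 2 and 1 in LEW, also entered through DA, did not pass in edgeR and passed in DESeq2, which called 3 of the 7 genes, and nothing is read from either. The direction was that of the Kupffer cells and the levels were a small part of theirs, with Ly6al in hepatocyte-gated cells at 2.39% and 1.88% of the Kupffer level of the same rat and RGD1559482 at 2.90% and 2.29% in DA. The Kupffer gate markers, which are not hepatocyte genes, stood at 2.00% and 1.37% of their Kupffer level in the same DA cells and at 0.861% and 1.1% in LEW, and Csf1r, the macrophage growth factor receptor, at 2.00% and 1.97% in DA. The gate itself held the marker shares low, as a hepatocyte-gated cell could hold at most 2 Kupffer marker UMIs. In NK-gated cells of DA-1 and DA-2 the markers stood at 3.18% and 1.63%, in mesenchymal-gated cells at 3.77% and 2.52%. The part of macrophage RNA in these hepatocyte values was not tested. The count of 2 fell to 1 without DA-2 or LEW-2 and to 0 without LEW-1, and the call for RGD1559482 was lost without any single rat, at log2 differences of 1.28 to 1.81.

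Kupffer-gated cells were then compared with other classes of the same rats, in a fit with the rat as a block. The genes were chosen for their level in DA Kupffer cells, so the DA side shares the counts of the choice, and values from LEW rats alone are given where they could be fitted. For Rgs1 and RGD1562667 they could not, with 1 UMI of each in LEW Kupffer-gated TLH cells, so both entered the fit through the DA counts that chose them and nothing is read from their calls. Against endothelial-gated TLH cells 3 of the 4 genes tested were higher in Kupffer-gated cells (17.8% of all genes were). These were RGD1559482, with a log2 difference of 5.14 ± 0.47 (adjusted p = 9.8e-08 in edgeR) and 4.80 ± 0.37 in LEW rats alone, and the 2 genes read through DA, Rgs1 with 3.80 ± 0.57 and RGD1562667, of which endothelial-gated cells of the 4 rats held 2 UMIs in all. Thbd gave 0.56 ± 0.29 (adjusted p = 0.148), and in LEW rats alone -0.35 ± 0.27 (adjusted p = 0.337), so a difference of thrombomodulin between the 2 cell types was not shown. Without LEW-1 it passed, at 1.09. The count of 3 became 1 without DA-1 or DA-2, 5 without LEW-1 and 4 without LEW-2. The 5 exceed the 4 genes tested with all rats, so they took in a gene too low for that test. Nothing is read from the rises without a LEW rat. Rgs1 lost its call when the rat was not a block, at 3.47.

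Against monocyte-gated cells only Thbd was called higher in Kupffer-gated cells, where 6.79% of all genes were, with 1 UMI over the monocyte-gated cells of all 4 rats (adjusted p = 0.00054 in edgeR, and 0.000145 in LEW rats alone, whose monocyte-gated cells held none). RGD1559482 gave -0.46 ± 0.32 (adjusted p = 0.465), and Rgs1 at 1.55 ± 0.68 and RGD1562667 at 0.95 ± 0.97 were not called. In LEW rats alone RGD1559482 was lower in Kupffer-gated than in monocyte-gated cells, by -1.54 ± 0.22 (adjusted p = 1.9e-10 in edgeR). Fits on LEW rats alone hold 2 rats, so their p-values, this one included, are not read as a measure of the spread between animals. The count of 1 was 2 without LEW-1 or without LEW-2, and nothing is read from that rise. All 4 genes were called higher than in hepatocyte-gated cells (32.7% of all genes were). The log2 differences were 5.13 ± 0.28 for RGD1559482 and 4.31 ± 0.28 for Thbd, with 5.31 ± 0.21 and 4.19 ± 0.30 in LEW rats alone, and through DA 4.13 ± 0.41 for Rgs1 and 6.05 ± 0.68 for RGD1562667. The count ran from 2 without DA-1 or DA-2 to 5 without LEW-1 or LEW-2. The 5 likewise took in a gene too low for the test with all rats, and nothing is read from that rise. In nuclei Thbd alone was tested. Over endothelial-gated nuclei it gave 1.1 ± 0.59 (adjusted p = 0.34 in edgeR), and -0.44 ± 0.51 in LEW rats alone. There 0 genes were called, against 6.1% of all genes, and Thbd passed without LEW-1, at 1.78. Over hepatocyte-gated nuclei it gave 6.49 ± 0.75, and 5.24 ± 0.69 in LEW rats alone, with 1 called against 30.7% of all genes. Without LEW-1 the count was 3 in either comparison. The genes added to Thbd had been too low for the test with all rats, so nothing is read from these counts.

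On the Wistar sections, where a spot covers several cells, the 7 genes could be read only in sums. Ly6al was among the better detected, with 236 and 268 UMIs in sections 1 and 2, in 8.45% and 9.94% of 2437 and 2404 spots. Spots were ranked by Kupffer marker level and cut into 3 equal parts, and the level of Ly6al was 2.03 and 2.77 times as high in the top as in the bottom part. RGD1559482 had 146 and 172 UMIs and ratios of 2.92 and 1.51, Thbd 145 and 219 UMIs and 1.43 and 1.91, and Rgs1 27 and 29 UMIs and 2.49 and 2.14. Siglec5, with 7 and 13 UMIs, and RGD1562667, with 1 and 4, were too rare to place. Htra4 had 3 UMIs in the top against 6 in the bottom spots of section 1 and 14 against 2 in section 2. Of the 5 genes with at least 10 UMIs in each section, 4 were higher in the Kupffer-rich part of both, Ly6al, RGD1559482, Thbd and Rgs1, and so were 33.6% of all 10700 genes with as many UMIs. The gate markers, which ranked the spots, had ratios of 3.04 to 6.55.

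The sections were set beside whole libraries by the UMIs of each gene per 1000 gate marker UMIs, mainly those of TLH. Ly6al had 8.69 and 8.67 on the sections, 17.3 and 16.9 in whole DA TLH libraries and 0.0300 and 0.0294 in LEW, where each library held 1 UMI, so Wistar liver carried the gene. Siglec5 had 0.258 and 0.421 on the sections, near the 0.300 and 0.353 of LEW and under the 3.24 and 4.38 of DA. RGD1562667 likewise had 0.0368 and 0.129, against 0.0599 and 0.236 in LEW and 3.29 and 2.66 in DA. RGD1559482 had 5.38 and 5.57 on the sections, 7.79 and 8.30 in LEW and 25.5 and 25.5 in DA, and Htra4 0.663 and 0.744 against 0.0599 and 0.0883 in LEW and 1.84 and 1.57 in DA. Rgs1 had 0.994 and 0.938 on the sections, 0.329 and 0.294 in LEW and 1.98 and 9.27 in DA, and Thbd 5.34 and 7.09, 6.95 and 4.00, and 12.9 and 19.5. These values also differed between preparations of the same strain. Siglec5 stood at 27.3 and 35.5 in DA and 3.77 and 11.2 in LEW nuclei, and Htra4 in LEW nuclei, at 0.377 and 1.68, spanned the values of the sections. Sections and cells differ in tissue handling, chemistry and the mixture they read, so these values stand side by side without a test, and in sums of a whole liver fewer cells of a type and less RNA per cell cannot be told apart.

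**Figure D4:**
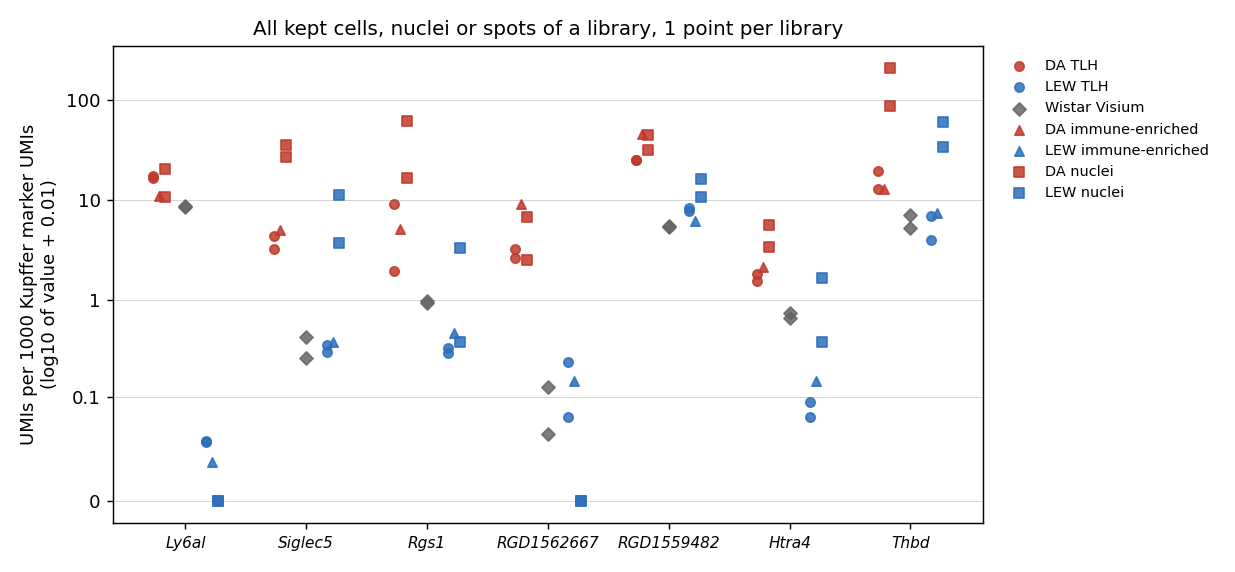
UMIs of each gene per 1000 UMIs of the Kupffer gate markers, on a log10(value + 0.01) axis, over all kept cells, nuclei or spots of each library, with red for DA, blue for LEW and gray diamonds for Wistar sections. For Ly6al the Wistar points, 8.69 and 8.67, lie just under those of DA and far above LEW, and for Siglec5 and RGD1562667 they lie near the LEW TLH points.

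The 3 genes with the most similar pattern to each of the 7 were sought over the 28 sums of a class in a TLH rat, by Pearson r of log2(CPM + 10), which mixes class and strain and is given as a description. Thbd ran closest to Msr1 (r = 0.958), a scavenger receptor, Dysf (0.906), dysferlin, and Maf (0.903), a macrophage transcription factor. RGD1559482 ran closest to Spi1 (0.916), which codes for PU.1, Nfam1 (0.910), an ITAM receptor, and RGD1561143 (0.898). Siglec5 ran with Zfat (0.836), Siglec1 (0.835) and Hmox1 (0.826), the heme-degrading enzyme. Htra4 ran with Gcnt1 (0.713), Hmox1 (0.682) and Cd163 (0.680), the hemoglobin scavenger receptor, and Ly6al with Vcam1 (0.656), Gcnt1 (0.655) and Hmox1 (0.650). Rgs1 was nearest to RGD1562667 (0.604), Sla (0.604) and Cd8a (0.588), and RGD1562667 to Ccdc88b (0.753), Ptpn7 (0.654) and LOC100909725 (0.636). The sums share libraries and depth.

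Relatives and partners of the 7 genes were read in the same Kupffer-gated sums, from lists drawn up with earlier results in view. In TLH 19 of these companion genes were called between strains, where 5.79% of all 6770 genes tested were. Of 24 Ly6 family genes in the data 2 passed the filter, and Ly6e, a widely expressed family member, fell in DA by 0.73 on the log2 scale (SE 0.16, adjusted p = 0.0175 in edgeR), the reverse of Ly6al. Siglec1, the sialoadhesin of macrophages, was the Siglec tested and gave 0.34 ± 0.21 (adjusted p = 0.405). Among Rgs genes Rgs10 gave -0.37 (adjusted p = 0.318) and Rgs19 -0.87 (adjusted p = 0.064), and among HtrA proteases Htra2 gave -0.11 (adjusted p = 0.862) and Htra1 1.09 (adjusted p = 0.111), with none called. The families of Siglec5, Rgs1 and Htra4 thus had no other member past the threshold. Most Siglec and Rgs genes were too low to test, whereas 2 of the 3 other HtrA genes were tested.

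Partners gave few calls. Of 7 adaptors and phosphatases that act with ITIM and ITAM receptors 0 passed, with the adaptors Tyrobp at -0.52 (adjusted p = 0.067) and Fcer1g at -0.53 (adjusted p = 0.064), and of 3 Cd300 genes 0 passed, with Cd300le at 0.07 (adjusted p = 0.978) and Cd300a at -0.39 (adjusted p = 0.627). Of 8 genes of the thrombomodulin and protein C system 2 rose in DA, Proc, which codes for protein C, by 0.84 ± 0.17 (adjusted p = 0.0136) and Serpinc1, antithrombin, by 0.72 ± 0.19 (adjusted p = 0.046). Both are hepatocyte products, and hepatocyte genes were present in these sums at the levels given above, whose part was not tested.

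The lists that moved were early-response and Kupffer identity genes. Of 15 early-response genes 6 rose in DA and 0 fell, with a median log2 difference of 0.95 that was 0.16 in nuclei, including Fos by 2.32 ± 0.29 (adjusted p = 0.0016), Zfp36, an mRNA decay factor, by 1.5 ± 0.18 (adjusted p = 0.00066) and Btg2, an antiproliferative gene, by 1.42 ± 0.22 (adjusted p = 0.0038). Of 25 Kupffer identity genes 1 rose, the adhesion molecule Vcam1 by 2.27 ± 0.36 (adjusted p = 0.0037), and 9 fell, led by Marco with -1.08 ± 0.17 (adjusted p = 0.0032), the folate receptor gene Folr2 with -1.07 ± 0.18 (adjusted p = 0.0046) and the lysosomal Cd68 with -0.91 ± 0.19 (adjusted p = 0.0137). The higher Ly6al, Siglec5 and RGD1559482 of DA therefore stood beside lower, not higher, levels of many common Kupffer genes, some of which also served the gate. The median of the list was -0.49 in TLH and 0.56 in nuclei, so its direction was not shared by the preparations. In nuclei 0 companion genes were called by edgeR or by DESeq2 (0.354% of all genes were by edgeR). On simulated data the edgeR fit recovered 0% of log2 changes of 1 in Kupffer-gated nuclei and 56.5% in Kupffer-gated TLH cells. The 0 calls in nuclei therefore do not show that such changes were absent. The TLH count of 19 became 27 without DA-1, 25 without DA-2, 14 without LEW-1, 10 without LEW-2 and 11 at the stated limit of 1500 UMIs for LEW cells, and the nuclei count of 0 became 8 without DA-2, 2 without LEW-1 and 13 without LEW-2.

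**Figure D5:**
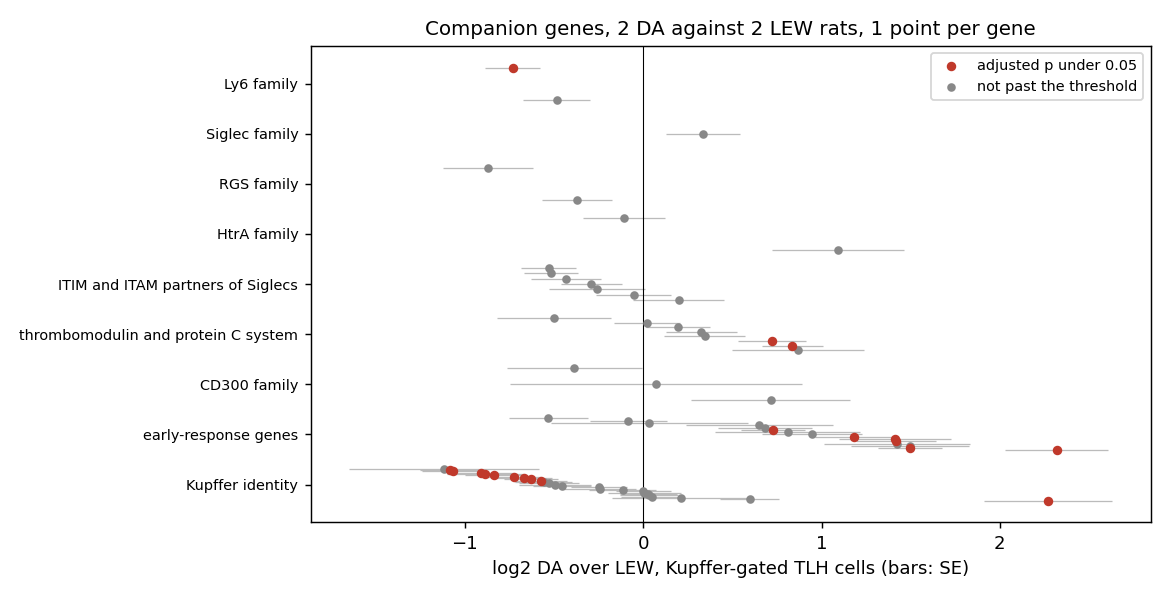
Log2 difference of DA over LEW in Kupffer-gated TLH sums for the companion genes of each list, with 1 point per gene, SE bars and genes past the threshold in red. Early-response genes lie mostly to the DA side, with Fos at 2.32, and Kupffer identity genes mostly to the LEW side, with Marco at -1.08 and Vcam1 at 2.27 on the DA side.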

How the data were processed

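Values are UMI counts that the authors made with Cell Ranger 3.1.0 (cells, nuclei) or Space Ranger 1.1.0 (sections) on a custom Rattus norvegicus reference, and left unnormalized in the deposited matrices, each holding genes by barcodes or spots. Rows of the TLH and immune-enriched matrices were named in the order of the nuclei's gene list.

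Barcodes were kept on the study's limits for UMIs and mitochondrial share, except that LEW cells of TLH needed 2000 UMIs (the stated 1500 being an alternative), and nuclei at 1000 UMIs and at most 10% mitochondrial UMIs. The limit of 2000 kept 5457 and 3844 LEW cells, which are cell numbers the paper gives for its final map. The stated 1500 kept 12124 and 7857. Doublets were not called, and cells passing several gates were left out. Before that, the monocyte gate yielded to the Kupffer, lymphoid and dendritic gates, and the T cell gate to the NK gate. Monocyte-gated cells held at most 4 Kupffer marker UMIs, and a class needed 10 cells. Hepatocyte-gated cells held at least 5% of UMIs from hepatocyte genes. They also held at most 2 UMIs of each of the Kupffer, monocyte, NK, T cell, B cell and endothelial lists, and at most 2 mesenchymal genes. Counts were summed per rat and class.

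Sums were tested in R 4.3.3 by edgeR 4.0.16, quasi-likelihood (TMM, default filter on low counts, Benjamini-Hochberg adjustment over all genes at 0.05). On simulated data this recovered 56.5% and 43.5% of log2 changes of 1 between strains in Kupffer and endothelial TLH sums. In nuclei it recovered 0% and 5.5% of them, and of log2 changes of 2 at least 94.5% throughout. DESeq2 1.42.0 was an alternative. Counting intervals are exact at 95%, the limit for a count of 0 is 3 counts of the total, and both cover counting error only.

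The 7 genes and the lists were chosen with earlier results of these data known, and the Cd300 list was added later. Named companions are the called genes of a list, at most 3 in each direction, or else the 2 with the highest level. Nearest patterns are the 3 genes with the largest r. Of the 7 genes, 6 matched the RefSeq table (RGD1562667 did not).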

Additional observations from a re-analysis of the deposited data

Results flagged for a closer look

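RGD1559482, the Igsf7-like gene, had its strains in opposite order in the 2 myeloid classes of TLH, with every rat of a strain on the same side. In monocyte-gated cells both LEW rats lay above both DA rats, a log2 difference of -0.64 (DA over LEW) that did not pass (adjusted p = 0.32 in edgeR), and 24.2% of all genes tested in this class had that order. In Kupffer-gated cells both DA rats lay above both LEW rats, at 1.26, which is what the gene was chosen for. The difference between the classes was not tested. The immune-enriched monocytes, from 1 rat of each strain, had DA above LEW, at 1366 against 630 CPM.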

How the results depend on the processing

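All 7 genes had DA above LEW in Kupffer-gated TLH cells and nuclei under each alternative run there, and none was run for the immune-enriched pair. This order could not change when a rat was left out, with the replicate block or without the low-count filter. Only other size factors, gates or UMI limits, or subtraction of the hepatocyte level, could have changed it. On the Wistar sections, counting the rarest genes too, 5 of the 7 were higher in the Kupffer-rich part of both, and 4 when smaller ends of the spot ranking were compared, where Siglec5 turned in section 1, from 4 against 2 UMIs to 1 against 2. Thinning turned the share of Thbd in DA-1 of TLH from below to above both LEW rats, but left it lower in DA than in LEW in the immune-enriched pair. Without a filter on low counts more genes were tested and counts rose, from 19 to 30 companion genes in TLH and from 0 to 3 in nuclei, from 0 to 1 of the 7 genes between strains in endothelial-gated and from 2 to 5 in hepatocyte-gated TLH cells, and for Kupffer-gated against other cells from 3 to 7 (endothelial), 4 to 7 (hepatocyte) and 1 to 5 (monocyte) in TLH and from 0 to 4 and 1 to 7 in nuclei. Those of the 7 genes that the filter had held back entered mostly through the DA counts that chose them. No share over all genes is at hand for this setting, so nothing is read from the rises among the 7. At 1500 UMIs for LEW the counts were 11 companions, 1 gene in endothelial-gated cells and 2 against monocytes. The stricter gate gave 4 companions in nuclei and left 1 endothelial-gated cell in DA-1 of TLH. With LEW rats only, 1 gene was higher than in endothelial-gated and 2 than in hepatocyte-gated cells. The cause of these shifts was not tested.

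Leaving out each rat gave ranges of 10 to 27 companions in TLH and 0 to 13 in nuclei, 0 to 1 gene between strains in endothelial-gated and 0 to 2 in hepatocyte-gated TLH cells, and 1 to 5, 2 to 5 and 1 to 2 genes higher than in endothelial-gated, hepatocyte-gated and monocyte-gated cells, with 0 to 3 and 1 to 3 in nuclei.

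Replicate numbers name different animals, and deviations of same-numbered rats correlated between -0.16 and 0.064, so they did not pair the samples. The order of the 7 genes was read from levels that the replicate number as a block leaves unchanged. With that block the log2 difference of Thbd in Kupffer-gated TLH cells was 1.24, and Rgs1 in hepatocyte-gated cells, which entered the test through DA counts, passed at 3.43.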
